A study of Arabidopsis thaliana with 20 samples.

Results

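Small RNA (sRNA) levels after 3 h of white light (W3 h) were compared with those in darkness (W0 h) in *Arabidopsis thaliana* seedlings of the laboratory accession Col-0. All 6 libraries came from wild-type seedlings grown in darkness for 4 d, and the W3 h seedlings were then kept in continuous white light. RNA was taken from the pooled aerial tissue of many seedlings, so each value is an average over cotyledons and hypocotyl. Each time point had 3 biological replicates, and each W3 h library was set against the W0 h library of the same replicate. Every row of the deposited table was used: 207 miRNAs, 58 phasiRNAs and 4255 siRNAs, or 4520 sRNAs in all.

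The first hours of light end the dark growth habit of a seedling: the hypocotyl slows its elongation, the cotyledons open and chloroplasts form. A miRNA is cut from a stem-loop precursor as a duplex, of which the guide strand is loaded into an ARGONAUTE protein and directs cleavage or translational repression of matching mRNAs. The other strand, the star, is usually degraded. phasiRNAs are cut in register from double-stranded RNA made on a transcript that was itself cleaved under the direction of an sRNA, and most other siRNAs come from repeats and act in DNA methylation. Guide strands numbered 146 and star strands 42, by the guide arm each family is known to use. For 19 miRNAs no strand was assigned.

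The libraries of replicates 1 and 2 came from a TruSeq kit and those of replicate 3 from the older Small RNA v1.5 kit. Levels of single sRNAs differed widely between replicate 3 and the other replicates. Only replicate 3 had that kit, so the kit cannot be told apart from other differences of this replicate. Changes are therefore given within replicate. Implied mapped reads were 17639306 to 18407313 per library at W0 h and 17660361 to 20906003 at W3 h. Values are in RPM, read counts scaled to the mapped 20–24 nt reads of a library for miRNAs and phasiRNAs and to all its mapped reads for siRNAs. A log2 change is the limma estimate on log2 of RPM plus 0.1, with the replicate as a term and its standard error (SE). Benjamini-Hochberg adjustment was done class by class, with a threshold of 0.05.

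The 6 miRNAs with an unadjusted p under 0.05 are shown first because the results turn on them. Their mature sequences are written 5′ to 3′, with bases 2 to 8, the seed, in capitals.
miR163: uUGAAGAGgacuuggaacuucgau
miR156a-3p: gCUCACUGcucuuucugucaga
miR171b-5p: aGAUAUUAgugcgguucaauc
miR396a-3p: gUUCAAUAaagcugugggaag
miR166e-5p: gGAAUGUUgucuggcacgagg
miR390b-3p: cGCUAUCCauccugaguucc
No seed was shared among the 6. Each sequence had 1 exact match in the TAIR10.1 genome, inside its own precursor gene. miR163 lies at chr1:24884359-24884382 on the plus strand, near the 3′ end of MIR163 (AT1G66725, chr1:24884066-24884396). miR163 is a 24-nt guide strand, longer than most plant miRNAs. The other 5 are star strands, from MIR156a (AT2G25095), MIR171b (AT1G11735), MIR396a (AT2G10606), MIR166e (AT5G41905) and MIR390b (AT5G58465).

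Across each class the median change at 3 h was small. The median log2 change of the 207 miRNAs was 0.01 (quartiles -0.22 and 0.17), and 206 of them lay within 2-fold. Within replicates 1, 2 and 3 the median miRNA was at -0.19, 0.03 and 0.02 on the log2 scale. Guide strands had a median of -0.00 and star strands a median of -0.15. The median phasiRNA was at -0.11, and the median of the 3601 siRNAs tested was at -0.00. For a single sRNA, the median SD of the 3 within-replicate log2 ratios was 0.35 for miRNAs, 0.44 for phasiRNAs and 0.46 for siRNAs.

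**Figure D1:**
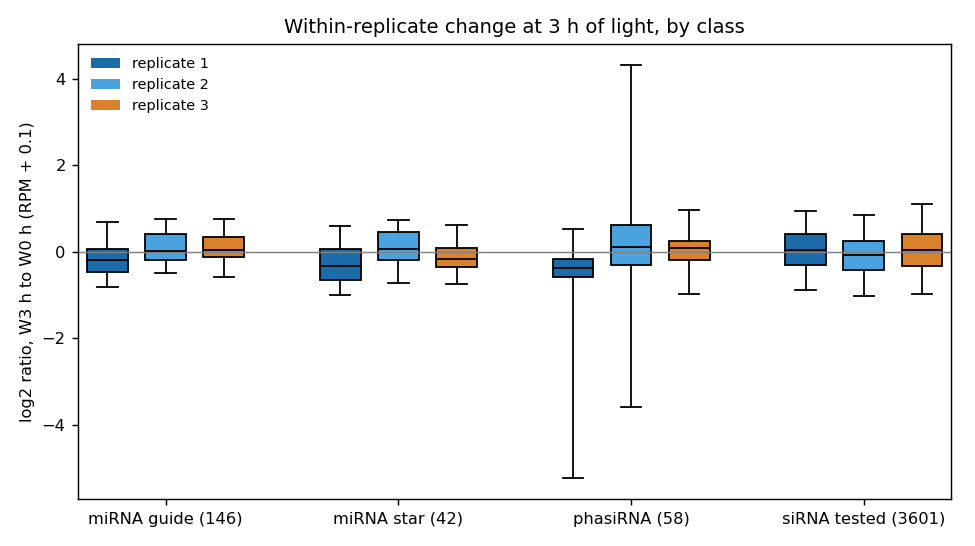
Within-replicate log2 ratio, W3 h over W0 h (RPM plus 0.1), for guide miRNAs, star miRNAs, phasiRNAs and the siRNAs tested. Boxes span the quartiles with the median as a line, whiskers the 5th to 95th percentiles, and colours mark the 3 replicates; the medians lie between -0.38 and 0.10, and the longest whiskers are those of phasiRNAs in replicates 1 and 2.

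One miRNA passed the adjusted threshold, 0.483% of the 207 tested. miR163, which targets mRNAs of the salicylate and benzoate family of methyltransferases, rose in light. Its level went from 1.54 to 29.3 RPM in replicate 1, from 1.03 to 30.6 RPM in replicate 2 and from 0.06 to 3.91 RPM in replicate 3. These values correspond to 23, 16 and 1 reads at W0 h and to 421, 494 and 80 reads at W3 h. All W3 h values lay above all W0 h values, and both TruSeq replicates were higher than replicate 3 at each time. The log2 change was 4.52 (SE 0.32, 95% confidence interval 3.85 to 5.20, limma adjusted p = 9.42e-10), a 23.01-fold rise on the scale with the pseudocount. Without the pseudocount the ratios were 19.01, 29.7 and 65.2, and the last rests on the single read at W0 h. At W1 h the level was 8.56, 5.75 and 1.55 RPM in replicates 1, 2 and 3, between W0 h and W3 h in each. miR163 passed without each replicate in turn (adjusted p 1.08e-10 to 3.46e-06), but not without the replicate term (adjusted p = 0.246) or in a one-sample test of the within-replicate log2 ratios, either without the pseudocount (adjusted p = 0.390) or with it (adjusted p = 0.271). In pooled tissue, more cells that make an sRNA and more of it per cell cannot be told apart.

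**Figure D2:**
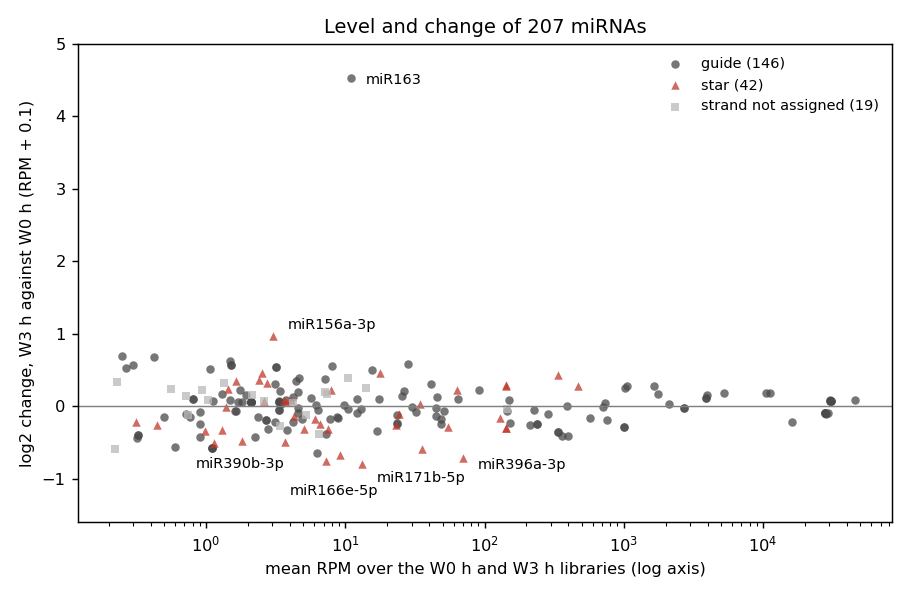
Log2 change at W3 h (vertical axis) against the mean RPM over the 6 libraries (horizontal log axis) for 207 miRNAs, with guide strands as circles, star strands as triangles and unassigned strands as squares. miR163 stands at 4.52, and the other 206 miRNAs lie between -1 and 1 at every level.

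No other miRNA passed, and 6 (2.90%) had an unadjusted p under 0.05. Besides miR163 these were 5 star strands, so that 2 miRNAs were higher (0.966%) and 4 lower (1.93%). They were 5 of 42 star strands and 1 of 146 guide strands, and the difference between strands was not tested. The limma adjusted p was 0.953 for each of the 5, so none of these changes was established.

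miR156a-3p is the star of the miR156 guide that represses SPL transcription factors, which promote the shift from juvenile to adult growth. It was at 1.24, 2.07 and 2.85 RPM at W0 h and at 3.75, 3.16 and 5.04 RPM at W3 h in replicates 1, 2 and 3. The W3 h values all lay above the W0 h values, and the log2 change was 0.97 (SE 0.37, unadjusted p = 0.0172). miR171b-5p is the star of a miR171 guide, which targets the HAM genes of the GRAS family that maintain shoot meristems. It was at 15.5, 12.3 and 21.4 RPM at W0 h and at 6.47, 7.12 and 16.6 RPM at W3 h. The groups overlapped through the higher level of replicate 3, and the log2 change was -0.80 (SE 0.28, unadjusted p = 0.00989).

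miR396a-3p is the star of miR396a-5p, the guide against growth-regulating factor (GRF) mRNAs. Its level was 116, 86.4 and 61.2 RPM at W0 h and 57.8, 65.9 and 36.4 RPM at W3 h, a log2 change of -0.71 (SE 0.30, unadjusted p = 0.0260). miR166e-5p is a star of the miR166 guide that restricts HD-ZIP III genes, which set organ polarity. It was at 6.75, 9.41 and 18 RPM and then at 4.48, 5.87 and 10.4 RPM, a log2 change of -0.68 (SE 0.29, unadjusted p = 0.0276). miR390b-3p is the star of miR390, which triggers phasiRNAs from TAS3. It was at 12.5, 11.7 and 3.63 RPM and then at 7.20, 6.25 and 2.42 RPM, a log2 change of -0.75 (SE 0.33, unadjusted p = 0.0340). Each was lower in 3 of 3 replicates, and the W0 h and W3 h values of each overlapped.

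**Figure D3:**
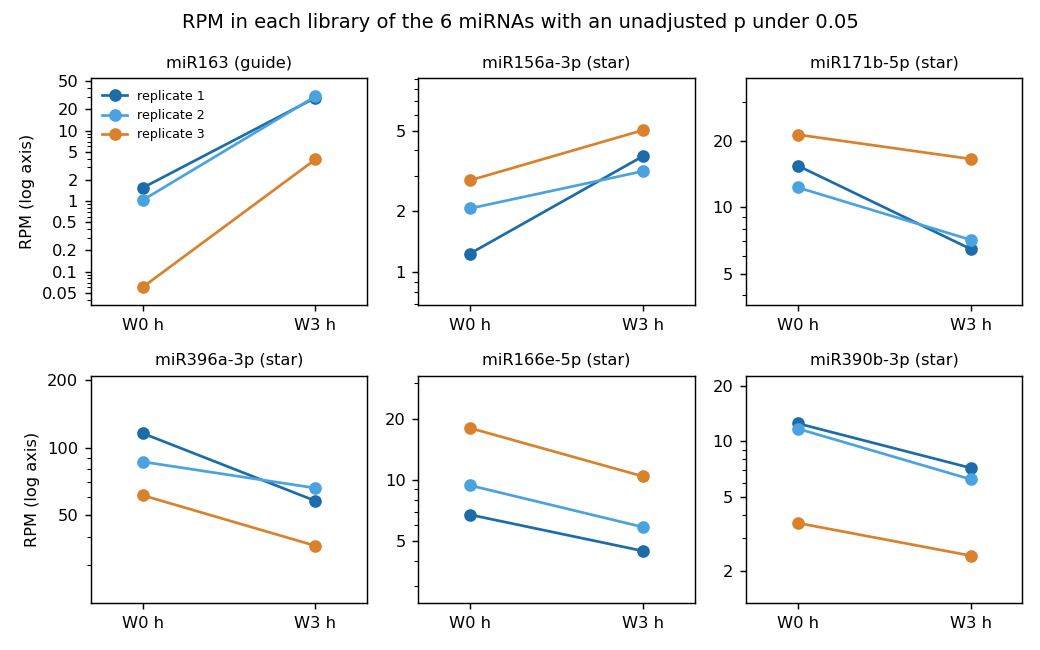
RPM (log axis) at W0 h and W3 h in each replicate for the 6 miRNAs with an unadjusted p under 0.05, with 1 line per replicate. miR163 goes from at most 1.54 RPM to at least 3.91 RPM, miR156a-3p is higher in all 3 replicates, and the other 4 star strands are lower in all 3.

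Agreement between replicates was limited for the rest of the class. Over all miRNAs, 68 had 1 direction in 3 of 3 replicates (32.9%): 24 were higher in 3 of 3 that often (11.6%) and 44 were lower (21.3%). Among guide strands higher in 3 of 3 replicates with a mean of at least 1 RPM, miR163 was followed by miR5026 (log2 change 0.58). Next were miR5643a and miR5643b, which share 1 sequence (0.54), and miR773a (0.39). miR773a, which targets a DNA methyltransferase mRNA, was at 4.08, 3.91 and 3.89 RPM at W0 h and 4.24, 5.57 and 6.07 RPM at W3 h, with no overlap. miR167a-3p, a star of the miR167 guide that targets auxin response factor mRNAs, did not overlap either, with 2.41, 1.87 and 2.03 RPM at W0 h and 2.50, 3.10 and 3.18 RPM at W3 h. In all, 7 miRNAs (3.38%) had W3 h and W0 h values that did not overlap: miR163, miR156a-3p, miR167a-3p and miR773a were higher, and miR395b, miR395c and miR395f were lower. Those 3 were at 0.39 RPM or less in each library.

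Among guide strands with a mean of at least 1 RPM that were lower in 3 of 3 replicates, the largest negative values belonged to miR395, which targets ATP sulfurylase and sulfate transporter mRNAs in sulfate assimilation. miR395a, miR395d and miR395e share a sequence and had equal values, 1.72, 1.62 and 0.75 RPM at W0 h and 1.09, 0.80 and 0.64 RPM at W3 h (log2 change -0.58, SE 0.30, limma adjusted p = 0.953). All 6 miR395 members were lower in 3 of 3 replicates, beside 21.3% of all miRNAs, but they are only 2 distinct sequences. Summed over the family, miR395 was at -0.59 (SE 0.28, limma unadjusted p = 0.0457 and adjusted p = 0.951 over 114 sums of a family and strand), and miR163 alone passed (0.877%). Other named members with negative values in 3 of 3 replicates were miR173-3p (log2 change -0.50), miR171c-5p (-0.47) and miR5012 (-0.42), and miR841b-5p, with no assigned strand, was at 0.38.

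Both strands were listed for 37 hairpins, and the ratio of star to guide within a library does not depend on how that library was scaled. For 25 of the 37 the guide sequence is shared with another miRNA and its reads are divided among the members, so the ratio sets the star of 1 locus against a guide pool of several. The guide of miR156a has 6 exact matches in TAIR10.1, that of miR166e 7 and that of miR171b 2, while the miR396a guide has 1. No ratio passed the adjusted threshold over the 18 libraries (0.0% of 37), and 4 (10.8%) had an unadjusted p under 0.05, 1 higher (2.7%) and 3 lower (8.11%). For miR156a the log2 ratio of star to guide was -11.7, -10.9 and -14.7 at W0 h and -10.04, -10.24 and -13.83 at W3 h, so the star remained far below the guide while the ratio was higher in each replicate. The log2 change of this ratio was 1.07 (SE 0.41, limma adjusted p = 0.176), and in the fit of the W0 h and W3 h libraries alone it passed (adjusted p = 0.0400). The guide strand miR156a-5p had a log2 change of -0.10 (SE 0.20). The ratios of miR156c and miR156f were also higher in 3 of 3 replicates, by 0.55 (SE 0.37) and 0.53 (SE 0.35) on the log2 scale.

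The ratio was lower in 3 of 3 replicates for miR396a, where the star had -0.71 and the guide miR396a-5p 0.28 on the log2 scale. The log2 ratio for miR396a was -4.38, -4.59 and 0.63 at W0 h and -5.49, -5.39 and -0.44 at W3 h. Its change was -0.99 (SE 0.34, limma adjusted p = 0.138). For miR166e the change was -0.76 (SE 0.25) and for miR171b -0.61 (SE 0.20), each with the same limma adjusted p of 0.138. For miR472, whose guide targets mRNAs of NBS-LRR resistance proteins, the ratio change was -0.68 (SE 0.36, limma adjusted p = 0.425), and in replicate 2 it was almost 0. Over the 37 hairpins the direction was the same in 3 of 3 replicates for 15 (40.5%), 7 higher and 8 lower, with a median log2 change of -0.00.

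**Figure D4:**
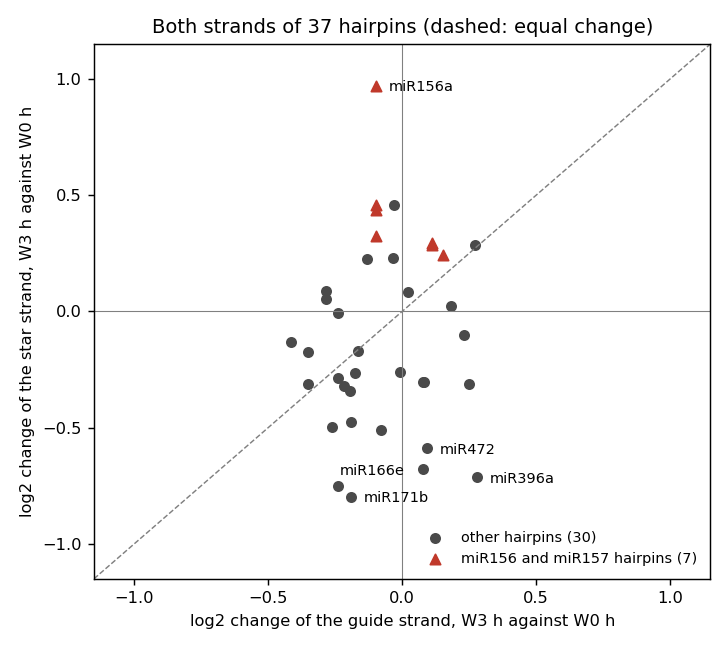
Log2 change at W3 h of the star strand (vertical axis) against that of the guide strand (horizontal axis) for 37 hairpins, with the 7 miR156 and miR157 hairpins as triangles. Points above the dashed line have a higher star-to-guide ratio at W3 h; miR156a lies highest at 0.97 and miR171b lowest at -0.80 on the star axis, while guide strands stay between -0.42 and 0.28.

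The miRNAs were also grouped into 14 lists by the targets of their families, which hold 121 of the 207. miR163 made a list of its own and passed. In the other 13 lists no member passed the adjusted threshold, and the members with an unadjusted p under 0.05 were the 5 star strands described above. In the SPL list (miR156 and miR157), the median log2 change was -0.10 over 14 guide strands and 0.33 over 7 star strands, and all 7 star strands lay above 0 with a range of 0.24 to 0.97. Of the guides, 9 were lower in 3 of 3 replicates, but these are 4 distinct sequences, and miR156a to miR156f share 1 of them with divided reads. Of the stars, miR156a-3p, miR156c-3p and miR156f-3p were higher in 3 of 3. Over all miRNAs 21.3% were lower and 11.6% higher that often. miR156b-5p, the most abundant guide, was at 5500.07, 4895 and 78419 RPM at W0 h and at 4852, 4599.8 and 76907 RPM at W3 h. miR156f-3p, the most abundant star, was at 479, 313 and 56.9 RPM and then at 596, 508 and 69.5 RPM. The 3 miR157 stars were higher in replicates 1 and 2 and lower in replicate 3.

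In the HD-ZIP III list (miR165 and miR166), 9 guides had a median of 0.08 and 4 stars a median of -0.31. The 9 guides are only 2 distinct sequences, with the reads of a family divided among its members. miR166a-3p, the most abundant miRNA in the TruSeq libraries, was at 66647, 69735 and 4662.5 RPM at W0 h and 65555, 63871 and 6106 RPM at W3 h. Its star miR166a-5p was at 213, 221 and 48.1 RPM and then at 162, 173 and 43.1 RPM, lower in each replicate but with a log2 change of -0.31 (SE 0.24). The HAM list (miR170 and miR171) had a median of -0.02 over 4 guides, which became 0.04 when libraries were scaled so that the median miRNA did not shift, and -0.64 over 2 stars. miR171a-3p, its leading guide, was at 19.2, 15.5 and 38.4 RPM and then 15.3, 25.4 and 39.99 RPM. The GRF list (miR396) had a median of 0.14 over 2 guides and -0.49 over 2 stars, and miR396a-5p was at 2412, 2089 and 39.4 RPM and then 2598, 2763 and 49.4 RPM.

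In auxin signalling (miR160, miR167 and miR393, against auxin response factors and TIR1-type receptors), 7 guides had a median of -0.08 and 5 stars -0.24. These 7 guides are 4 distinct sequences. miR167b was at 40.1, 38.1 and 7238 RPM and then 29.9, 39.0 and 8931 RPM, and its log2 change was -0.03 (SE 0.26). miR160c-3p, the leading star, had a log2 change of -0.29 (SE 0.25). For the silencing machinery (miR162 against DCL1, miR168 against AGO1, miR403 against AGO2), the medians were -0.20 over 5 guides and -0.31 over 5 stars. The 5 guides are 3 distinct sequences and split by family. In 3 of 3 replicates the 2 miR168 guides were higher, and the 3 of miR162 (-0.35 as a family sum) and miR403 (-0.20) were lower. miR168a-5p had a log2 change of 0.27 (SE 0.33) and its star miR168a-3p 0.28 (SE 0.32).

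For the triggers of phasiRNAs (miR161, miR173 and miR390), 5 guides had a median of -0.24 and 3 stars -0.50. In 3 of 3 replicates 3 guides (2 sequences, since miR390a and miR390b share theirs) and 2 stars were lower, beside 21.3% of all miRNAs. miR161.1 was at 1778, 1791 and 2653 RPM and then 1589, 1897 and 2983 RPM. For pentatricopeptide repeat (PPR) genes (miR158, miR161 and miR400), the median was -0.07 over 5 guides, and the 1 star, miR158a-5p, was at -0.32. miR158a-3p had a log2 change of -0.22 (SE 0.24).

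The MYB and TCP list (miR159, miR319 and miR858) had 8 guides, all above 0, with a median of 0.15 and none with the same direction in 3 of 3 replicates. miR159a, its leading member, was at 9556, 6768 and 103 RPM and then 6735, 7969 and 181 RPM. The NF-YA list (miR169) had a median of 0.05 over 10 guides (3 distinct sequences) and 0.07 over 3 stars. In it miR169a-5p was at 0.23 (SE 0.31) and miR169a-3p at -0.10 (SE 0.26). In the copper list (miR397, miR398 and miR408, against copper proteins), 5 guides had a median of -0.25 and 4 stars 0.07. miR398b-3p was at 1746, 1265 and 0.12 RPM and then 1742, 1287 and 0.02 RPM, with a log2 change of -0.28, or 0.011 without replicate 3. miR408-5p was at -0.17 (SE 0.31).

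The phosphate and sulfate list (miR395, miR399, miR827 and miR2111) had a median of -0.40 over 9 guides (4 distinct sequences), 6 of which were the miR395 members. miR399b was at -0.04 (SE 0.26), and the 1 star, miR2111b-3p, was at 0.34 (SE 0.43). The list of miRNAs linked to the light-signalling factor HY5 (miR156d, miR402, miR408, miR775 and miR858) had a median of -0.02 over 6 guides, or 0.03 with rescaled libraries, and its leading guide miR156d-5p was at -0.10 (SE 0.20). In all lists the shift set by that rescaling was 0.06 or less.

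None of the 58 phasiRNAs passed (0.0%), and none had an unadjusted p under 0.05 by limma, while edgeR on the recovered reads also called 0 with 0 unadjusted. They come from TAS1a, TAS1b, TAS1c, TAS2 and TAS3, noncoding transcripts whose products act in trans, and from genes of the PPR family. Of the 58, 4 were higher in 3 of 3 replicates (6.90%) and 9 were lower (15.5%). These are counts of entries, since some sequences are listed for more than 1 locus with equal values, such as phasiR_23 and phasiR_34. By locus the medians were -0.15 over 13 phasiRNAs of TAS1c, -0.11 over 12 of TAS1a and -0.00 over 9 of TAS2. The TAS1c median was the value of phasiR_47, with within-replicate log2 ratios of -2.94, 2.36 and 0.15. That phasiRNA was listed at 0 at W3 h in replicate 1 and was at 0.06 RPM at W0 h in replicate 2. TAS1a also held entries listed at 0 at W3 h, such as phasiR_53. The sign of neither median was therefore read as a change in light.

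The siR255 sequence is shown because it had, with phasiR_40, the highest log2 change of those higher in 3 of 3 replicates, and phasiR_53 because it took about 50.2% of all phasiRNA RPM in replicate 3 at W0 h, with bases 2 to 8 in capitals.
siR255: tTCTAAGTccaacatagcgta
phasiR_40: aTTTCCTAagatccaatcaaa
phasiR_53: aTGATATTtgtagtaatggcg
siR255 has 3 exact matches in TAIR10.1, in TAS1a (chr2:11721965-11721985), TAS1b (chr1:18549544-18549564) and TAS1c (chr2:16537837-16537857), and is listed for TAS1a and TAS1c with equal values. It was at 1.61, 2.20 and 103 RPM at W0 h and at 2.57, 3.53 and 110 RPM at W3 h (log2 change 0.47, SE 0.51, limma adjusted p = 0.994). phasiR_40, from the opposite strand of TAS1a, was at 0.40, 0.65 and 5.87 RPM and then 0.63, 0.93 and 7.97 RPM, with a log2 change of 0.48. The largest negative values in 3 of 3 replicates were those of phasiR_58 of TAS3 (log2 change -1.15, SE 0.62) and of phasiR_23 and phasiR_34 (-0.63, SE 0.43), 1 sequence listed for RFL9 and AT1G63150. phasiR_58 was at 0.07, 0.45 and 28.3 RPM and then listed at 0 in replicates 1 and 2 and at 23.8 RPM in replicate 3. Its log2 change depends on the pseudocount and ran from -2.91 to -0.29 over the alternatives.

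A few phasiRNAs of replicates 1 and 2 were listed at 0. At W3 h these were 12 phasiRNAs in replicate 1 and 5 in replicate 2, while at W0 h and in replicate 3 none was at 0. The lowest values at W0 h were shared by several phasiRNAs. In replicate 1, phasiR_2, phasiR_32, phasiR_38, phasiR_57 and phasiR_58 were all at 0.07 RPM. In replicate 2, phasiR_5, phasiR_6, phasiR_10, phasiR_44 to phasiR_48 and phasiR_51 were all at 0.06 RPM. Whether these values stand for a 0 was not tested. Zeros were not particular to W3 h, since 53 and 41 of the 58 were above 0 at W1 h in replicates 1 and 2. In replicates 1 and 2, phasiR_48 was at 5.02 and 0.06 RPM at W0 h and at 0 and 3.22 RPM at W3 h. The values of 0 at W3 h were therefore not read as losses in light. phasiR_53, phasiR_57 and phasiR_58 were chosen after their values were seen. phasiR_53 was at 19.8 and 14.99 RPM in replicates 1 and 2 at W0 h and listed at 0 in both at W3 h, but it was at 5635 and 6419 RPM in replicate 3. phasiR_57 of TAS3 was at 0.07 and 5.62 RPM and then listed at 0 in both, and at 91.8 and 97.8 RPM in replicate 3. Replicates 1 and 2 thus differed from replicate 3 for both, and the log2 change of phasiR_53 was -4.90 with an SE of 2.28 (limma adjusted p = 0.994).

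Of the 4255 siRNAs, 3601 were above 0 in all 6 libraries and were tested. None passed the adjusted threshold (0.0%), and 119 (3.30%) had an unadjusted p under 0.05, 52 higher (1.44%) and 67 lower (1.86%). Direction was the same in 3 of 3 replicates for 917 (25.5%): 458 were higher (12.7%) and 459 lower (12.7%). W3 h and W0 h values did not overlap for 52 (1.44%). When whole reads were recovered from the RPM values and tested in these 6 libraries with edgeR, 2 siRNAs (0.0555%) passed the adjusted threshold, both higher.

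Those 2 siRNAs were SRNA22574518 and SRNA5553524, also among the 10 with the largest positive values. SRNA22574518 was at 0.22, 5.54 and 1.08 RPM at W0 h and at 0.62, 15.8 and 5.55 RPM at W3 h (limma log2 change 1.64, SE 0.41, limma adjusted p = 0.998, edgeR adjusted p = 0.0323). SRNA5553524 was at 79.7, 56.6 and 0.51 RPM and then at 127, 206 and 2.10 RPM (log2 change 1.46, SE 0.39, limma adjusted p = 0.998, edgeR adjusted p = 0.0488). Both were higher in 3 of 3 replicates, and the W0 h and W3 h values of each overlapped. SRNA16057357 was at 7.83, 3.10 and 0.23 RPM and then at 12.0, 11.1 and 1.77 RPM, a log2 change of 1.64 (SE 0.43). No sequence is printed for these 3.

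**Figure D5:**
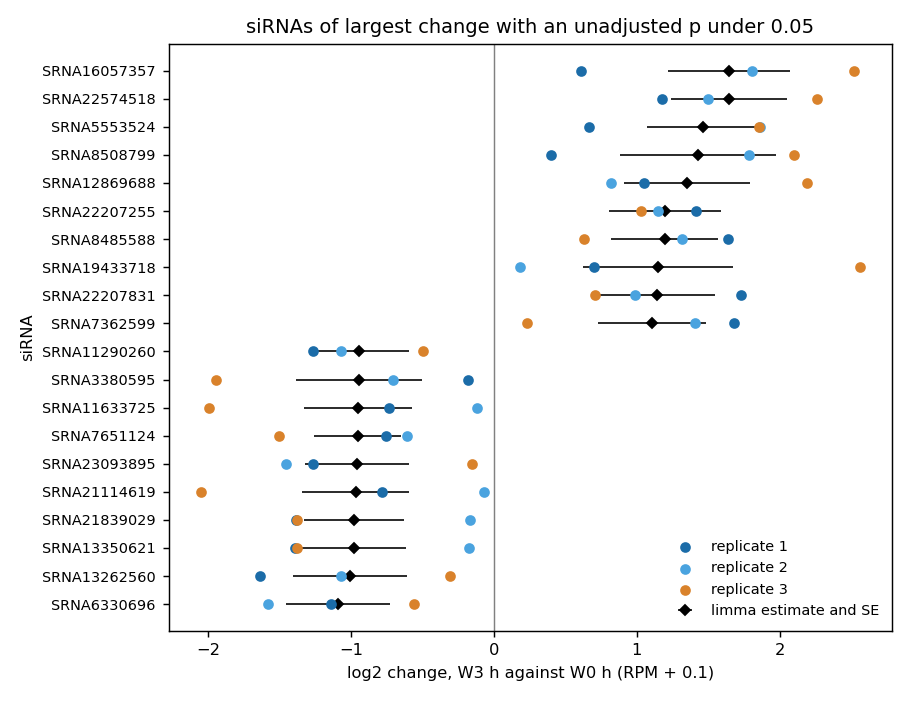
Log2 change at W3 h (horizontal axis, RPM plus 0.1) of the 10 siRNAs with the largest positive and the 10 with the largest negative values among those with an unadjusted p under 0.05 and the same direction in 3 of 3 replicates. Circles are single replicates, and diamonds with bars are the limma estimate and its SE; the positive values reach 1.64 and the negative ones -1.09.

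Sequences of the named siRNAs are given where the sources hold one, since they show which loci these siRNAs could come from. Bases 2 to 8 are in capitals, and the first 2 had positive and the last 2 negative log2 changes.
SRNA8508799: aTTCCGGAaccgggacgtgg
SRNA22207831: tGACAGAAgacagtgagcact
SRNA7651124: aTCGGCTGtagcaggtgggtcagc
SRNA11633725: cCTTGGTAgagctccacttgcagc
SRNA8508799 had 2 exact matches in TAIR10.1, at chr2:7741-7760 and chr3:14201712-14201731, both in genes annotated as miscellaneous RNA. It was at 0.66, 0.11 and 0.11 RPM and then at 0.91, 0.62 and 0.81 RPM, and the log2 change was 1.43 (SE 0.55). SRNA22207831 shares its first 10 bases with the miR156a-5p guide and differs from it by G11C, counted from the 5′ end of the miRNA, and by 1 further base at the 3′ end. It had 0 exact matches in the genome, and the study allowed mismatches for siRNAs. Its level was 1.21, 2.83 and 0.28 RPM and then 4.25, 5.71 and 0.53 RPM, a log2 change of 1.14 (SE 0.41), beside -0.10 for the guide itself.

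Among the tested siRNAs with a known sequence, 230 resembled a miRNA, with at most 2 mismatches over at least 18 nt. The median log2 change was -0.04 for 147 related to miR156 and 0.22 for 22 related to miR157. In 3 of 3 replicates, 7 of the 147 were higher and 26 lower, and 7 of the 22 were higher and 0 lower. Over all tested siRNAs the median was -0.00, with 12.7% higher and 12.7% lower in 3 of 3. The siRNAs related to a family are close variants of its few sequences, so they are not independent and the counts are not of separate changes. The sequences known are a part of the siRNAs and were not a random sample.

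SRNA7651124 and SRNA11633725 each had 6 exact matches, all antisense to the pseudogene annotated there, such as AT1G08740 on chromosome 1 for the first and AT2G12810 on chromosome 2 for the second. SRNA7651124 was at 3.03, 2.01 and 0.45 RPM and then at 1.76, 1.29 and 0.10 RPM (log2 change -0.95, SE 0.30). SRNA11633725 was at 1.10, 1.68 and 0.68 RPM and then at 0.62, 1.54 and 0.10 RPM (log2 change -0.95, SE 0.38), and its log2 change ran from -1.36 to -0.43 when a replicate was left out. Among siRNAs with an unadjusted p under 0.05 and 1 direction in 3 of 3 replicates, the most negative value was that of SRNA6330696, at 0.99, 0.81 and 0.96 RPM and then 0.40, 0.21 and 0.62 RPM (-1.09, SE 0.36). Each was lower in 3 of 3 replicates and had a limma adjusted p of 0.998. The other 7 of the 10 negative siRNAs had log2 changes between -1.09 and -0.94, and the other 5 of the 10 positive ones 1.11 to 1.35.

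The remaining 654 siRNAs were listed at 0 at W0 h, at W3 h or at both, always in all 3 replicates of a time point together. At W0 h 440 were listed at 0 and at W3 h 341, of which 127 were at 0 at both, so 313 had values at W3 h alone and 214 at W0 h alone. In each of the 3 replicates, 3815 siRNAs were above 0 at W0 h and 3914 at W3 h. A listed 0 is thus shared by a whole time point and was not read as absence of the siRNA. No fold is given against a time point listed at 0. The recovered reads at the other time point were often few: the lowest replicate had a median of 5 reads among the 313 and of 4 among the 214. The median of the mean RPM was 0.40 and 0.39.

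The 5 highest of the 313 were led by SRNA11361692, at 6.85, 65.6 and 0.14 RPM (121, 1274 and 3 reads). SRNA12022398 was at 18.3, 16 and 0.05 RPM (323, 311 and 1 reads), and SRNA3315630 at 20.04, 13.9 and 0.05 RPM. SRNA2933523 was at 3.23, 33.3 and 0.05 RPM and SRNA15046533 at 14.8, 15.1 and 0.19 RPM. In all 5 the TruSeq replicates carried nearly all reads, and replicate 3 held 1 to 4 reads.

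The highest at W0 h alone were SRNA19670519, at 22.5, 10.9 and 0.06 RPM, SRNA24621993, at 11.6, 12.3 and 0.06 RPM, and SRNA7336926, at 12.4, 10.8 and 0.06 RPM. SRNA3547030 was at 2.48, 20.4 and 0.11 RPM and SRNA10450109 at 9.81, 8.10 and 0.06 RPM. These 5 showed the same split between the TruSeq replicates and replicate 3, with 1 or 2 reads in replicate 3. Of the 10, sequences were held for 3, shown here for their loci with bases 2 to 8 in capitals.
SRNA2933523: aCACCTAGaccagttagaaccgac
SRNA12022398: cGATGTCGtccagcggttaggata
SRNA10450109: cCATCGAGtctttgaacgca
SRNA12022398 had 7 exact matches, among them chr1:2939419-2939442, near the 5′ end of the tRNA gene AT1G09110. SRNA10450109 had 2 exact matches, in rRNA genes (AT2G01020, chr2:5875-5894, and AT3G41979, chr3:14199846-14199865). SRNA2933523 had 3, all antisense to pseudogenes, such as AT1G13660 on chromosome 1.

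Degradome sequencing, which reads the 5′ ends of cut mRNAs, was done on 1 dark library and 1 light library that mixed 5 light time points, so it cannot be set to W3 h. Of the siRNAs named here, 3 had a cleavage record. SRNA8508799 had a site in AT5G67488.1 with 2 reads in the light library, SRNA10450109 a site in AT1G47420.1 with 8 reads in the light library, and SRNA11633725 a site in AT1G37160.1 with 2 reads in the dark library. The first and the last have fewer reads than the study required at a site.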

How the data were processed

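The authors mapped adaptor-trimmed reads to TAIR10 with Bowtie (version 1.0.0 in the submitters' processing notes), divided miRNA reads among family members, kept sRNAs with enough reads in all 3 replicates of at least 1 time point, and deposited RPM values (headed TPM). Each siRNA and phasiRNA value in the deposited table gave whole reads (100.0%), but 61.8% to 68.1% of miRNA values per library did at W0 h and W3 h, since family reads are divided. The degradome records are CleaveLand output with raw read numbers, also deposited by the authors. No column was left out when the values were read (0), but the siRNA fits did not use W24 h.

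limma 3.58.1 in R 4.3.3 (lmFit, then eBayes with trend) was fitted to log2(RPM + 0.1), with the time point and replicate as terms, over 18 libraries. For siRNAs 15 libraries (W0 h to W12 h) were used, with a time point listed at 0 taken as missing. W24 h siRNA values were not used. Same-numbered W0 h and W3 h libraries deviated together from the time point means (r of 0.944, 0.951 and 0.988 for miRNAs), so the numbers were taken to pair the libraries, although the kit of replicate 3 alone could give this. The difference between replicates 1 and 2, which share a kit, correlated between W0 h and W3 h with r of 0.157 for miRNAs, 0.464 for siRNAs and -0.338 for phasiRNAs. edgeR 4.0.16 (quasi-likelihood) was run on recovered reads.

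Named miRNAs were those with an unadjusted p under 0.05, the 10 largest positive and 10 largest negative values with 1 direction in 3 replicates and at least 1 RPM, and the most abundant member of each list on each strand. Named siRNAs, phasiRNAs and hairpins followed like rules. Members and lists were chosen with earlier results of these data known. The choices varied were the pseudocount (1 and 0.01 RPM), no replicate term, rescaled libraries, minimum levels, fewer libraries, no trend, each replicate left out, a one-sample test of within-replicate ratios and 1 item per sequence. edgeR, sums by family and the one-sample test with the pseudocount were added after the data were seen. miRNA sequences come from the study's tables, and positions from exact matches to TAIR10.1 made with Python 3.11.15. The fits were also run on simulated reads with a fixed scatter and without the listed zeros. That run does not show how the fits behave on these data. Replicates are described as biological. The limma p-values rest on the scatter left after the time point and replicate terms, over all libraries fitted and moderated across sRNAs.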

Additional observations from a re-analysis of the deposited data

How the results depend on the processing

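The call of miR163 was lost without the replicate block (0 miRNAs passed, log2 change still 4.52) and in the one-sample test of within-replicate log2 ratios, which uses no pseudocount (0 passed, log2 change 5.06). The same test with the pseudocount, added after the data were seen, also gave 0 (log2 change 4.52). It held in the other alternatives, with a log2 change of 3.25 for a pseudocount of 1 RPM. The star-to-guide ratios gave 1 call (miR156a, 1.07) in the W0 h and W3 h libraries alone, and edgeR gave 2 siRNA calls, SRNA22574518 (1.81) and SRNA5553524 (1.39), a test added after the data were seen. The replicate block changed no other call. Leaving out a replicate gave 1 miRNA, 0 phasiRNA, 0 siRNA and 0 ratio calls each time. Numbers with an unadjusted p under 0.05 moved more. For miRNAs they were 6 (2 higher), 11 (7 higher) with rescaled libraries, 11 in the W0 h and W3 h libraries alone, 1 without the block and 4 to 13 without a replicate. For siRNAs they were 119, 202 in those libraries alone, 1 without the block and 66 to 185 without a replicate. For ratios they were 4, 9 and 0 in the same order, and 1 to 3 without a replicate.

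With rescaled libraries the log2 change of miR167b became 0.027 and that of miR399b 0.021. Leaving out a replicate spanned 0 for miR166a-3p (-0.075 to 0.18), miR167b (-0.20 to 0.17), miR161.1 (-0.040 to 0.13), miR159a (-0.13 to 0.52), miR171a-3p (-0.13 to 0.38), miR398b-3p (-0.44 to 0.011), miR399b (-0.13 to 0.15) and miR2111b-3p (-0.27 to 0.85). Leaving out a replicate also moved the log2 change by over 1.5 times without a change of sign for SRNA11633725 (-1.36 to -0.43), the miR472 ratio (-1.02 to -0.33), phasiR_23 and phasiR_34 (-0.85 to -0.26) and phasiR_58 (-1.602 to -0.493), among others. Low values limit the siRNA results: the median SD of the within-replicate log2 ratios was 0.53 under 1 RPM and 0.30 at 10 RPM or more.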
